A study of Mus musculus with 6 samples.

Results

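The transcripts described here lie inside 3 of the longest genes of the mouse genome, Fhit, Immp2l and Macrod2, and in Fhitos, a short gene on the opposite strand within Fhit. They come from a table of long non-coding RNA (lncRNA) transcripts assembled from pancreatic islets, the clusters of endocrine cells that hold the insulin-secreting beta cells. A transcript was counted as a member when its interval overlapped 1 of these genes more than any other gene of the GENCODE M21 annotation. Of the 3093 transcripts, 48 met this rule: 23 in Fhit (1 of them also in Fhitos), 21 in Immp2l and 4 in Macrod2. A further 3 intervals lay as completely in another gene as in Immp2l or Macrod2 and were kept apart.

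The islets came from C57BL/6 mice, and the labels name no altered allele. There were 3 libraries after 8 weeks of normal chow (NCD) and 3 after 8 weeks of what the labels call a high-fed diet (HFD). Libraries were Illumina TruSeq RNA preparations from total RNA. The deposited table gives 1 FPKM per diet for each transcript, that is, fragments scaled to the length of the transcript and to all mapped fragments. No value exists here for a single library, so no standard deviation and no test between diets can be attached to any value below, and a difference is described by its size alone. The db/db mice of the series title were not analysed here. In islet RNA, fewer cells of a type and less RNA per cell cannot be told apart. Of 26 marker genes of islet, acinar, duct, endothelial, stromal and immune cells, only Epcam held a transcript of this table. Epcam was listed with the duct genes but is not taken here as a sign of duct cells. The cell makeup of the islets could thus not be read from this table.

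Fhit encodes a small enzyme of the histidine triad family that cleaves diadenosine polyphosphates, and it is known as a tumour suppressor gene. Immp2l encodes a catalytic subunit of the peptidase that trims proteins at the mitochondrial inner membrane. Macrod2 encodes a macrodomain enzyme that removes ADP-ribose from proteins. Their human counterparts span common fragile sites, stretches that break when DNA replication is slowed, and very long transcription units are typical of such sites. Almost all of each gene is intron: RNA polymerase must cross very long distances to reach the next exon, and the intronic RNA is normally removed and degraded.

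On GRCm38, Fhit covers chr14:9550092-11162035 on the minus strand (1611944 bases), and its longest CCDS model has 10 exons that sum to 1094 bases. Immp2l covers chr12:41024090-41955588 on the plus strand (931499 bases), with 7 exons of 1147 bases in all. Macrod2 covers chr2:140395309-142392966 on the plus strand (1997658 bases), with 19 exons of 4883 bases. Fhitos covers chr14:10738535-10783076 on the plus strand. Positions below are distances of a transcript's midpoint from the 5′ end of its gene, and introns are numbered from that end in the model named above.

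The start regions of the 3 genes are shown because the members are read below by their distance from them, and because Fhit has an internal start that divides its members. Each run holds 250 bases before and 50 bases after a RefSeq start on GRCm38.p6, 5′ to 3′ on the strand of the gene, with CG dinucleotides in capitals. The outer Fhit start lies in chr14:11161986-11162285 (minus strand), the internal Fhit start in chr14:10453409-10453708 (minus strand), the Immp2l start in chr12:41023840-41024139 (plus strand) and the Macrod2 start in chr2:140395180-140395479 (plus strand).
Fhit outer start: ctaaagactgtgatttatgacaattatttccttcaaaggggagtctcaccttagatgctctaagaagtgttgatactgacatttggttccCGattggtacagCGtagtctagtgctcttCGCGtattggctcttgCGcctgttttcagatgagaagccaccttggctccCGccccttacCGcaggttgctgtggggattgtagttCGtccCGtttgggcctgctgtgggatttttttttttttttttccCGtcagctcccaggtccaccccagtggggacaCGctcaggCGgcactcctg
Fhit internal start: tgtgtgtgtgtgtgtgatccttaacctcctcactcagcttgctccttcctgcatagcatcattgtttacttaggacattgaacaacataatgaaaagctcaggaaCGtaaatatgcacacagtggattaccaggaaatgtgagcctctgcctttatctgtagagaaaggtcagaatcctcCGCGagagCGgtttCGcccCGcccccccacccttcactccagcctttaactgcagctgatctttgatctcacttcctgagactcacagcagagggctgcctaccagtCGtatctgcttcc
Immp2l start: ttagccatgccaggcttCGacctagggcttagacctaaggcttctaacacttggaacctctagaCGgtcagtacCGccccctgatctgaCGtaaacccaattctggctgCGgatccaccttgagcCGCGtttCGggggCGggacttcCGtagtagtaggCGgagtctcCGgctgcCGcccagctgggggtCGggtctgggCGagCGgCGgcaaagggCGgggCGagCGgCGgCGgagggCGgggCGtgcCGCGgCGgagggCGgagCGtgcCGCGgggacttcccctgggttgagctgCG
Macrod2 start: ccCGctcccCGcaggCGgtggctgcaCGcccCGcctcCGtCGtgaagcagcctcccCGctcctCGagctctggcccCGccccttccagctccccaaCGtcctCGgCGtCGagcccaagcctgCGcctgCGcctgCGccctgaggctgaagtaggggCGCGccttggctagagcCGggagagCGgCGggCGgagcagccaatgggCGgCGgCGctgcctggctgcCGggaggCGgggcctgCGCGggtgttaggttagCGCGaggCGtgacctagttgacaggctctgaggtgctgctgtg
The Immp2l and Macrod2 starts were rich in CG, with 32 and 33 of these dinucleotides. The outer and internal Fhit starts held 12 and 7. Over the 32851 promoters of the same length in the RefSeq table the median was 7, and 94.6% held at least 1 (CG reads the same on both strands). GC content was 68% for Immp2l and 73.7% for Macrod2 against 50.7% and 49.3% for the outer and internal Fhit starts. The counts describe these letters only, and no member reaches any of the 4 windows.

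Almost every member was lower in HFD islets. Of the 48, 45 had the lower value in HFD, where 80.0% of the whole table did. By size, 32 members (66.7%) had an HFD value at least 2-fold lower, against 41.9% of all transcripts. A single member (1 of 48, 2.08%) was at least 2-fold higher, against 6.27% of all transcripts. The 2-fold rule was applied to log2 of (HFD + 0.1) over (NCD + 0.1), in FPKM, which understates the difference of low transcripts. The median of the members was 2.40 FPKM in NCD and 1.12 FPKM in HFD, and their median log2 ratio was -1.21, a ratio of 0.432. The table as a whole had a median log2 ratio of -0.82, so much of this difference is shared by the table. Relative to that median 38 members lay below and 10 above, and after subtracting it the split by the 2-fold rule was 7 lower and 3 higher.

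**Figure D1:**
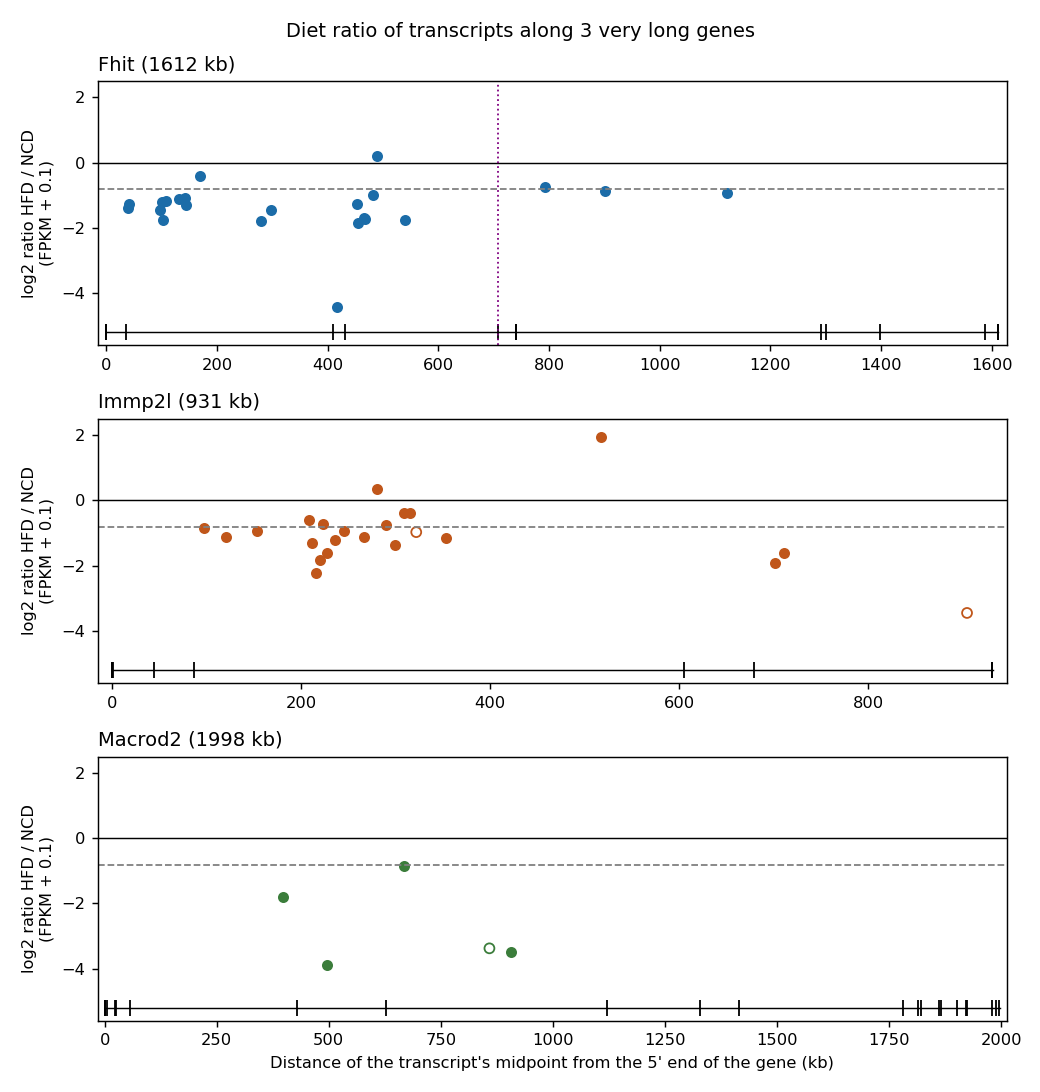
Log2 ratio of HFD to NCD (FPKM + 0.1) of each transcript against the distance of its midpoint from the 5′ end of Fhit, Immp2l and Macrod2, in kb. Filled points are the 48 members and open points the 3 intervals shared equally with another gene; the solid line is 0, the dashed line the table's median of -0.82, ticks at the bottom are CCDS exons, and the dotted line is the internal start of Fhit. The points crowd towards the 5′ side of each gene and lie mostly below the dashed line.

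Most members are intronic, and intronic transcripts as a class had low ratios in this table. The 2004 other transcripts lying in introns and touching no exon had a median log2 ratio of -0.97, and 48.4% of them were at least 2-fold lower in HFD. The members' median differed from theirs by -0.24. By length, members of 1 kb or more had a median of -1.03 (20 members) against -0.80 for other intronic transcripts of that length. Those of at least 400 and under 1000 bases had a median of -1.34 (20 members) against -1.09, and those under 400 bases had -1.14 (8 members) against -1.16. Among members of 1 kb or more, the 9 in Fhit had a median of -1.465 and the 10 in Immp2l -0.89. At least 2-fold lower were 77.8% and 30% of these, against 35.8% of other intronic transcripts of that length. From 400 to under 1000 bases the medians were -1.24 in Fhit (14 members) and -1.72 in Immp2l (4 members). The shift below other introns was thus seen in the longer classes and not in the shortest. At 1 kb or more it was mainly that of Fhit, and its size was not tested.

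Members lay towards the start of their genes. Of the 48, 43 (89.6%) had their midpoint in the 5′ 50% of the gene: 21 of 23 in Fhit, 18 of 21 in Immp2l and 4 of 4 in Macrod2. In other genes of at least 500 kb the share was 239 of 344 (69.5%). Among 24 such genes with at least 5 transcripts the share ran from 14.3 to 100% with a median of 79.3%, so the placement seen here lies within their range. No member lay in the last 25% of Fhit or in the last 50% of Macrod2.

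Fhit held the most transcripts of any of the 240 annotated genes of at least 500 kb, and Immp2l the next most. These counts leave out intervals shared equally with another gene, except the Fhit transcript also in Fhitos. With its shared intervals Immp2l had 23, as many as Fhit, and the ranks were not recomputed in this way. Per megabase of gene, Immp2l ranked 3 with 22.5 and Fhit ranked 6 with 14.3, while Macrod2 had 2.00. The 97 such genes that held any transcript had a median of 2.49 per megabase. Within the genes the transcripts were unevenly spread over the introns. Intron 4 of Immp2l, of 517.8 kb, held 19 of the 21 members (3.67 per 100 kb), and its intron 6 of 251.2 kb held 2 (0.796 per 100 kb). In Fhit, intron 2 (373.9 kb) held 12 members, intron 3 (21.79 kb) 1, intron 4 (308.1 kb) 7 and intron 5 (551.3 kb) 3. Intron 8 of Fhit, 190.2 kb long, held 0.

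In Fhit, 22 of 23 members (95.7%) were lower in HFD, against 80.0% of all transcripts and 86.3% of other intronic ones. At least 2-fold lower were 18 (78.3%), against 41.9% of all transcripts and 48.4% of other intronic ones. The median log2 ratio was -1.26. NCD values spanned 1.62 to 4.86 FPKM with a median of 2.53, and HFD values spanned 0.102 to 3.45 FPKM with a median of 1.11. The levels in NCD thus stayed within a narrow band along more than a megabase of intron. After subtracting the table's median the median of Fhit is -0.44.

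The member nearest the Fhit start, at 39.9 kb (chr14:11121650-11122584, 935 bases, intron 2), had 3.35 FPKM in NCD against 1.21 FPKM in HFD, giving a log2 ratio of -1.39. Its neighbour at 41.1 kb lay 290 bases away and had 3.36 and 1.34 FPKM (-1.26). These 2 transcripts had nearly the same level in each diet. Farther into intron 2, the transcript at 97.4 kb was at 3.76 and 1.31 FPKM (-1.46) and that at 100.4 kb at 2.90 and 1.2 FPKM (-1.21). The longest intervals of this stretch lay at 102.9 kb (2938 bases), with 2.20 and 0.578 FPKM (-1.76), and at 108.4 kb (2120 bases), with 2.15 and 0.899 FPKM (-1.18). Both were lower in HFD by more than 2-fold, and their NCD levels nearly coincided. Between 130.8 and 143.5 kb lay 3 members with 2.10 and 0.920 FPKM (-1.11), 3.33 and 1.53 FPKM (-1.07) and 2.53 and 0.974 FPKM (-1.29). The member at 168.7 kb (579 bases) was the exception in this intron, with 1.70 FPKM in NCD and 1.24 in HFD (-0.42), above the median of the table. The last 2 members of intron 2 had low HFD values: 2.73 and 0.717 FPKM at 279.6 kb (1295 bases, -1.79) and 1.62 and 0.523 FPKM at 297.4 kb (1240 bases, -1.46). In all, 11 of the 12 members of intron 2 were at least 2-fold lower in HFD.

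The lowest ratio of all members was in intron 3 of Fhit, inside the body of Fhitos. This 410-base transcript at 417.6 kb (chr14:10744267-10744676) had 4.20 FPKM in NCD, the second highest NCD value in Fhit, and at 0.102 FPKM in HFD, a 41.4-fold lower value with a log2 ratio of -4.42. It touched no annotated exon of Fhit or Fhitos. By the order of the identifiers, described below, it falls with minus-strand genes, the strand of Fhit and not of Fhitos.

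Intron 4 of Fhit held both strongly lower members and the single member of Fhit that was higher in HFD. The transcripts at 452.9 kb (1795 bases) and 454.4 kb (501 bases), 283 bases apart, had 2.13 and 0.835 FPKM (-1.25) and 2.18 and 0.527 FPKM (-1.86). Those at 465.3 kb (2383 bases) and 467.3 kb (530 bases), 563 bases apart, had 2.13 and 0.583 FPKM (-1.71) and 4.86 and 1.39 FPKM (-1.73). The 4.86 FPKM at 467.3 kb (chr14:10694446-10694975) was the highest NCD value in Fhit, and the pair kept nearly the same diet ratio at different levels. At 481.2 kb the values were 2.98 and 1.44 FPKM (-1.0). At 489.6 kb (chr14:10672188-10672641, 454 bases) they were 2.99 FPKM in NCD against 3.45 FPKM in HFD (0.20). The transcript at 539.2 kb (1548 bases) was again lower, with 2.28 and 0.604 FPKM (-1.76). The member that was higher in HFD thus lay between lower ones.

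Past the internal start the Fhit ratios were close to that of the table. GENCODE places the first exon of a 7-exon Fhit model at base 10453458 of chromosome 14, 708.577 kb from the outer start, so members farther along can belong to RNA from either start. The 3 members beyond it lay at 792 kb (chr14:10360079-10379915, 19837 bases), 901.5 kb (chr14:10258592-10262431, 3840 bases) and 1122.5 kb (chr14:10039154-10039836, 683 bases). Their values were 1.97 and 1.14 FPKM (-0.75), 2.87 and 1.51 FPKM (-0.89) and 2.22 and 1.11 FPKM (-0.94). None of the 3 was at least 2-fold lower in HFD by the size rule. Of the 20 members between the 2 starts, 18 were, against 41.9% of all transcripts, and their median was -1.34. In NCD the medians on both sides were alike, at 2.63 FPKM before and 2.22 FPKM beyond the internal start. This split was chosen after the values were seen, rests on 3 transcripts and was not tested.

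The member at 792 kb was the only one of the 48 to touch an annotated exon, that of Gm48442, a transcript model on the same strand whose single exon of 2252 bases shares 2219 bases with it. The first 300 shared bases, 5′ to 3′ on the minus strand (chr14:10379616-10379915), are shown from the GENCODE M21 transcript as the sequence of a member that could be read.
Gm48442: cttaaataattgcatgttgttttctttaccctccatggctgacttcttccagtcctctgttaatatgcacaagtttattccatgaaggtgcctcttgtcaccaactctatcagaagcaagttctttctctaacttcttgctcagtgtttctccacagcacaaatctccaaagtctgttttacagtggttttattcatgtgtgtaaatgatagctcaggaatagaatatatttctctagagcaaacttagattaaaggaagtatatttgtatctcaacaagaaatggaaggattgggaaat
The shared 2219 bases had a GC content of 35.9%. The other member intervals lie in introns, and their sequences were not used here.

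**Figure D2:**
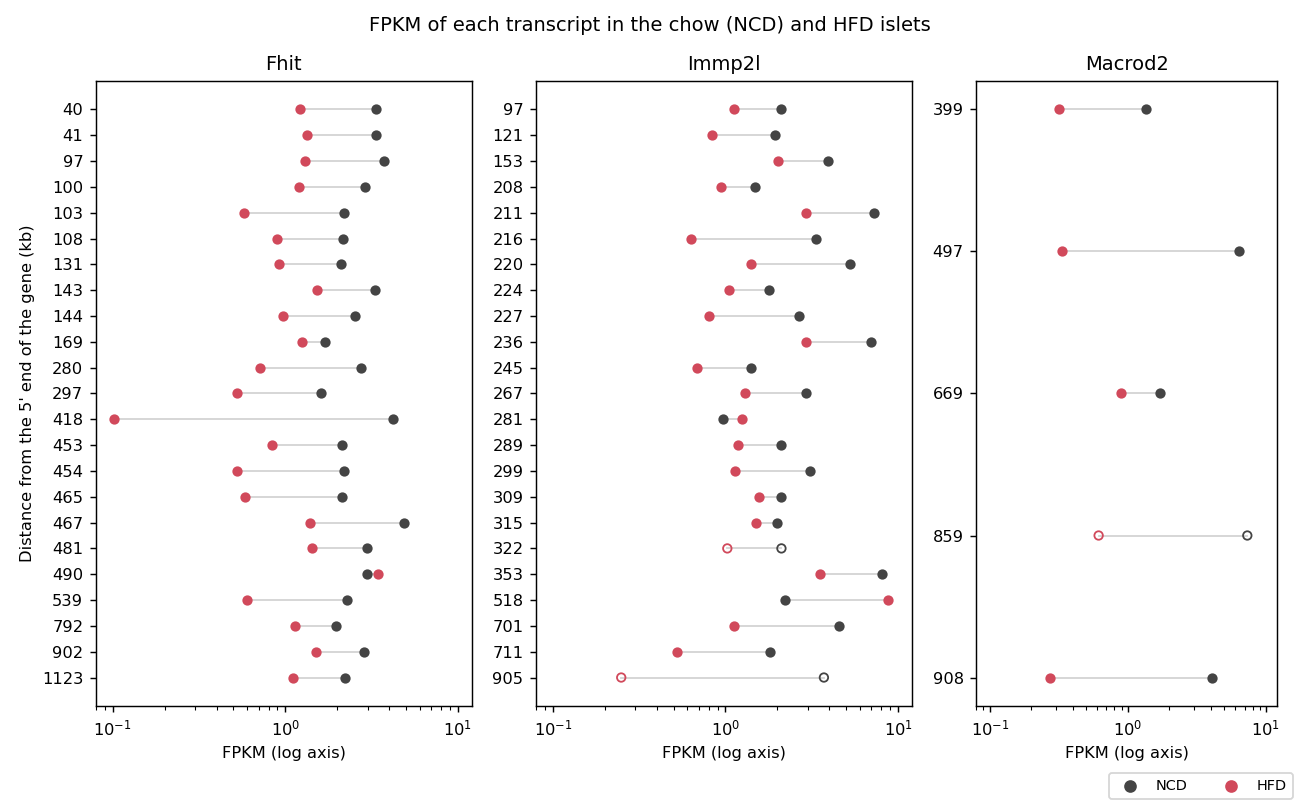
FPKM of each transcript in NCD (dark) and HFD (red) on a log axis, 1 row per transcript, ordered and labelled by distance from the 5′ end of the gene in kb. Open symbols are the 3 intervals shared equally with another gene. HFD lies to the left of NCD in all rows except those at 490 kb in Fhit and at 281 and 518 kb in Immp2l.

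In Immp2l, 19 of 21 members were lower in HFD, against 80.0% of all transcripts, and 11 (52.4%) were at least 2-fold lower. That share was 41.9% for all transcripts and 48.4% for other intronic ones. A single Immp2l member (4.76%) was at least 2-fold higher, against 6.27% of all transcripts. The median log2 ratio of Immp2l was -1.12, or -0.30 after subtracting the median of the table. NCD values spread more widely than in Fhit and ran from 0.971 to 8.03 FPKM with a median of 2.22, and HFD values from 0.526 to 8.74 FPKM with a median of 1.19. The 2 genes differed in transcript length: 7 Immp2l members were under 400 bases, and the shortest in Fhit had 410. Among members of 1 kb or more, NCD values ran from 0.971 to 3.91 FPKM in Immp2l and from 1.62 to 2.87 FPKM in Fhit.

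The member nearest the start of Immp2l lay at 97.0 kb (chr12:41112833-41129334, 16502 bases), just beyond an exon in intron 4, with 2.11 FPKM in NCD and 1.13 in HFD (-0.85). Next came 1.93 and 0.838 FPKM at 120.8 kb (3393 bases, -1.12) and 3.91 and 2.01 FPKM at 153.3 kb (1055 bases, -0.93). These 3 had ratios near that of the table.

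A group of 8 members between 208.4 and 245.5 kb showed how much neighbours in a single intron can differ. Long intervals of this group had low levels and small differences. The transcript of 2368 bases at 208.4 kb was at 1.48 and 0.936 FPKM (-0.61), that of 5395 bases at 223.7 kb at 1.79 and 1.05 FPKM (-0.71), and that of 9967 bases at 245.5 kb at 1.41 and 0.681 FPKM (-0.95). Short intervals had high NCD levels. The values were 7.29 and 2.92 FPKM at 211.2 kb (chr12:41235107-41235480, 374 bases, -1.29), 5.25 and 1.4 FPKM at 219.6 kb (411 bases, -1.83) and 6.94 and 2.94 FPKM at 236 kb (462 bases, -1.21). The lowest ratio in Immp2l lay among them, at 216.2 kb (chr12:41240023-41240566, 544 bases), with 3.34 FPKM in NCD and 0.634 in HFD (-2.23). The 1307-base transcript at 227.3 kb, 257 bases from the long one at 223.7 kb, had 2.66 and 0.807 FPKM (-1.60).

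**Figure D3:**
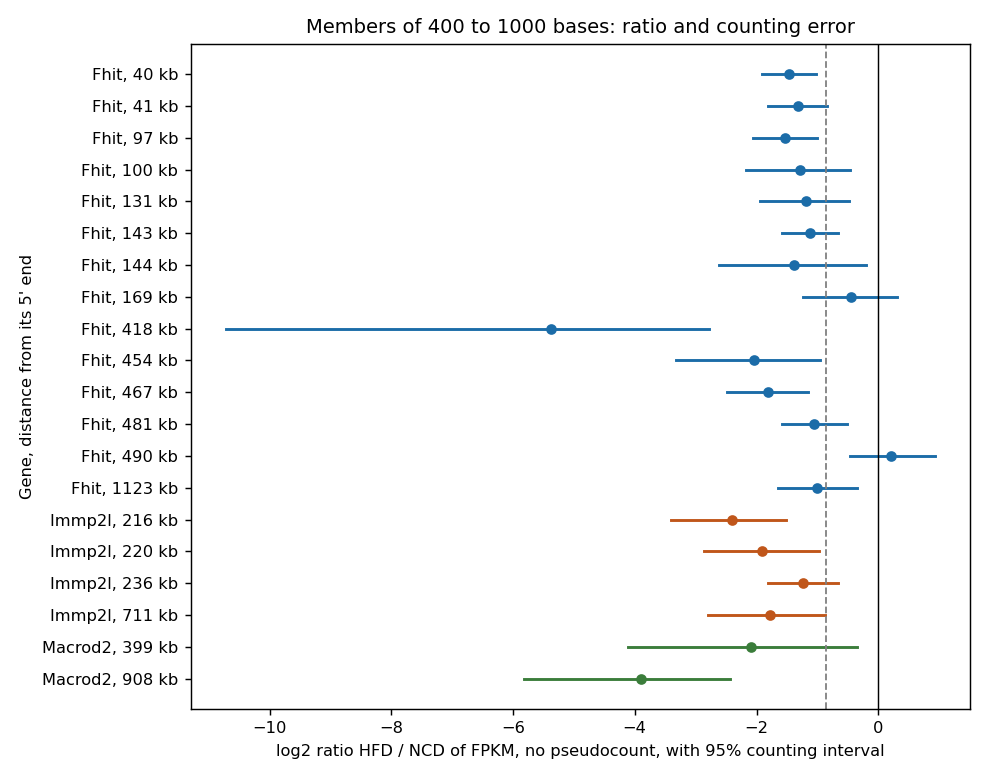
Log2 ratio of HFD to NCD without a pseudocount for the 20 members of 400 to 1000 bases, with exact 95% counting intervals from estimated fragments; the dashed line is the median of -0.86 of the 2964 transcripts above 0 in both diets. Of the intervals, 18 lie wholly below 0, and the widest belongs to the Fhit transcript at 418 kb, whose HFD value stands for about 1 fragment.

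Farther into intron 4 of Immp2l the ratios were mixed. At 267.1 kb the values were 2.94 and 1.30 FPKM (-1.12), at 289.4 kb (3765 bases) 2.08 and 1.19 FPKM (-0.76) and at 299.1 kb (1170 bases) 3.11 and 1.13 FPKM (-1.38). The 1073-base transcript at 280.6 kb (chr12:41304106-41305178) had the lowest NCD value of all 48 members, 0.971 FPKM, and a higher value of 1.25 in HFD (0.34). The transcripts at 308.7 kb (299 bases) and 315 kb (337 bases) were nearly equal to each other, with 2.10 and 1.56 FPKM (-0.40) and 2.00 and 1.5 FPKM (-0.39). Both lengths are close to the mean fragment lengths of 294 and 288 bases estimated below. Their FPKM thus depend on the correction for length, and no fragment number was given for them. The highest NCD level of all members was at 353 kb (chr12:41376853-41377228, 376 bases), with 8.03 FPKM in NCD and 3.55 in HFD (-1.16).

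The sole member that was at least 2-fold higher in HFD lay alone at 517.5 kb (chr12:41541463-41541728), still in intron 4 of Immp2l. It was at 2.22 FPKM in NCD against 8.74 FPKM in HFD, a 3.94-fold higher value (log2 ratio 1.93) and the highest HFD level of the 48. With 266 bases it was also the shortest, shorter than the mean fragment lengths of 294 and 288 bases estimated below. An FPKM at such a length depends on how the quantifier corrects for length, and no fragment number could be given for it. Beyond it, in intron 6, the transcripts at 701 kb (318 bases) and 710.8 kb (chr12:41734577-41735196, 620 bases) were lower again, with 4.56 and 1.12 FPKM (-1.93) and 1.81 and 0.526 FPKM (-1.61). The length of the transcript at 701 kb is also close to those mean fragment lengths.

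Macrod2, though the longest of the 3 genes, held 4 members, and 3 of them were at least 2-fold lower in HFD. That share was 41.9% for all transcripts. The median log2 ratio was -2.64, or -1.82 after subtracting the median of the table. It was -1.42 with a pseudocount of 1 FPKM and -1.80 with spans of at least 400 bases. At 398.7 kb (chr2:140793776-140794221, 446 bases, intron 3) the values were 1.35 and 0.315 FPKM (-1.80). At 496.6 kb (chr2:140891757-140892063, 307 bases, intron 4) they were 6.36 FPKM in NCD and 0.336 in HFD, 18.9-fold lower (-3.89). This transcript is barely longer than the mean fragment lengths of 294 and 288 bases estimated below. Its FPKM thus depends on the correction for length, and no fragment number was given for it. The longest, of 1551 bases at 668.9 kb (chr2:141063434-141064984, intron 5), was at 1.72 and 0.897 FPKM (-0.87), close to the table's median. At 907.8 kb (chr2:141302829-141303299, 471 bases, intron 5) the values were 4.07 and 0.273 FPKM, 14.9-fold lower (-3.48). HFD values of the 4 ran from 0.273 to 0.897 FPKM and NCD values from 1.35 to 6.36 FPKM, the highest in the 307-base transcript.

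The 3 intervals lying equally in another gene were also lower in HFD, as were 80.0% of all transcripts. In Macrod2 and its opposite-strand gene Macrod2os1, a 340-base transcript at 858.6 kb (chr2:141253764-141254103) was at 7.33 and 0.614 FPKM (-3.38). Its length is also close to the estimated mean fragment lengths, so its FPKM depends on the correction for length. In Immp2l and the lincRNA gene Gm46348, a 438-base transcript at 904.6 kb (chr12:41928428-41928865) was at 3.72 and 0.249 FPKM (-3.45). In Immp2l and the antisense gene Gm47376, an 1807-base transcript at 321.8 kb (chr12:41345022-41346828) was at 2.11 and 1.02 FPKM (-0.97). With the first of these, Macrod2 would have 5 transcripts and a median of -3.38.

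The identifiers of the table place all of these transcripts with genes of the same strand as their host. The file has no strand column. On each of the 21 chromosomes with more than 1 transcript, locus identifiers sorted by number ran along the chromosome in 2 passes, with 1 large step back between them (the other steps back, on 5 chromosomes, were of at most 118110 bases). Of intronic transcripts lying in genes of 1 strand only, 969 of 1030 in the first pass (94.1%) were in plus-strand genes and 881 of 951 in the second (92.6%) in minus-strand genes. The match was weaker for transcripts over exons of non-coding genes, 99 of 171 (57.9%). All 48 members, and the 3 shared intervals, lay in the pass matching the strand of Fhit, Immp2l or Macrod2. In other genes of at least 500 kb, 332 of 353 did (94.1%). No source used here says whether a pass stands for a strand.

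The use of locus numbers was also counted within these genes. The 23 Fhit transcripts used 23 of the 36 consecutive locus numbers between the lowest and the highest (63.9%). In Immp2l, with the shared intervals, it was 23 of 30 (76.7%), and in Macrod2 5 of 7 (71.4%). Over all transcripts, 3042 numbers were used up to 53219 (5.72%). The stretches counted in these genes begin and end at a used number, which raises their share. No other gene was counted this way, so the shares do not tell whether these genes differ from others. The loci behind the unused numbers were not analysed here.

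Some members lay very close together. There were 6 pairs of members less than 1 kb apart, 5 in Fhit and 1 in Immp2l, and their log2 ratios differed by 0.03 to 0.89, with a median of 0.39. For 60 such pairs elsewhere in the table the median difference was 0.49. Members of a pair may be pieces of the same RNA and are not separate measurements of the diet.

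The precision of single transcripts was read from the steps in low values. FPKM values of 400 to 900 bases fitted whole fragments best with totals (in units of 1e6 fragments) of 65.2 for NCD and 79.7 for HFD and mean fragment lengths of 294 and 288 bases. The same totals and lengths came from a random part of these transcripts alone, and made 19 of 22 low NCD values (86.4%) and 59 of 59 low HFD values (below 8 fragments) in the remaining transcripts whole within 0.15 of a fragment, where 30% would be by chance. These numbers hold if each column was counted from 1 pool of unspliced transcripts. For the 20 members of 400 to 1000 bases they give 13.4 to 140.1 fragments in NCD (median 47.5) and 0.995 to 64.7 in HFD (median 26.4).

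Counting error alone left the direction of most of these members clear. The exact 95% counting interval of the log2 ratio, without a pseudocount, lay wholly below 0 for 18 of 20 and held 0 for the Fhit members at 168.7 and 489.6 kb. The transcript inside Fhitos stands for about 32.0 fragments in NCD and 0.995 in HFD, with an interval of -10.7 to -2.78. The Macrod2 transcript at 907.8 kb stands for 47.2 and 4.0 fragments (-5.83 to -2.44), and the lowest of Immp2l for 54.7 and 13.0 (-3.40 to -1.51). Against the table's own median of -0.86 on this scale, 9 intervals lay wholly below, 1 wholly above and 10 held it. The intervals cover counting error only and not the variation between mice.

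**Figure D4:**
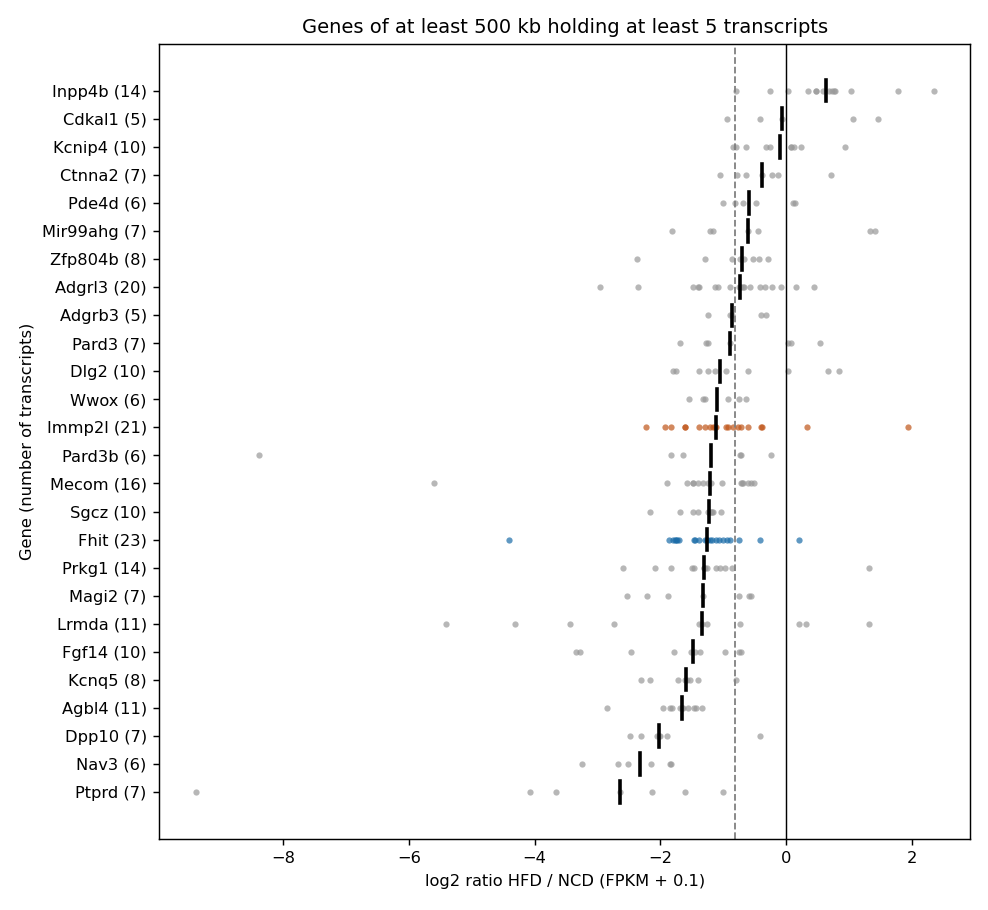
Log2 ratio of HFD to NCD (FPKM + 0.1) of every transcript in the 26 genes of at least 500 kb that hold at least 5, 1 row per gene with the number of transcripts in brackets. Intervals shared equally with another gene are left out, except the Fhit member also in Fhitos. Black bars are medians, the dashed line is the table's median of -0.82, and Fhit (blue) and Immp2l (orange) sit in the middle of the order, at -1.26 and -1.12.

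Among very long genes, Fhit and Immp2l were near the middle. The other 24 genes of at least 500 kb with at least 5 transcripts had medians from -2.64 in the receptor phosphatase gene Ptprd to 0.63 in the lipid phosphatase gene Inpp4b, and the median of their medians was -1.15. Ordered from the lowest of the 26, Fhit ranked 10 and Immp2l ranked 14. The standard deviation of the ratios across transcripts was 0.82 in Fhit and 0.88 in Immp2l, against a median of 0.79 in the others. Macrod2 had too few transcripts to be ordered.

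Taken as a list, other genes known to span large fragile sites also had low ratios, but single genes varied. In a list of 29 such genes, 12 held a total of 71 transcripts, with a median log2 ratio of -1.12. Of the 71, 39 (54.9%) were lower by at least 2-fold, against 41.9% of all transcripts. Higher by as much was 1 (1.41%), against 6.27% of all transcripts. All 374 transcripts in other genes of at least 500 kb had a median of -0.91, and 47.6% were at least 2-fold lower. In Wwox, an oxidoreductase gene and the best known fragile-site tumour suppressor beside Fhit, the 6 transcripts had a median of -1.10 and 3 were at least 2-fold lower. In Prkg1, a cGMP-dependent kinase gene, 11 of 14 were at least 2-fold lower (median -1.30) and 1 was at least 2-fold higher. In the cell adhesion gene Sdk1, 0 of 4 passed the rule (median -0.30). At least 2-fold lower were 3 of 11 in Pard3b (median -0.71) and 0 of 2 in Esrrg (median -0.89). Unlike the members, this list includes intervals shared equally with another gene. Without these, Pard3b had 6 transcripts and a median of -1.19. Of 12 genes for related histidine triad, inner membrane peptidase and macrodomain proteins, only the DNA repair gene Aptx held a transcript, at a log2 ratio of -1.47.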

How the data were processed

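The deposited table gives FPKM, per the file headers, as 1 value for each diet group, and these values were used as the authors made them. The submitters' processing notes name GRCm38 and mm10. Which aligner, assembler, quantifier and filters were used, and how the 3 libraries of a group were combined, is not given in the sources used here.

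Intervals were placed against GENCODE M21, which is on GRCm38, with Python 3.11.15, pandas 2.3.3, NumPy 2.4.6 and SciPy 1.17.1. Ratios used a pseudocount of 0.1 FPKM and differences a 2-fold size rule, since 1 value per group allows no test. The size rule and the fit of fragment totals were checked on simulated data. Members and lists were chosen with earlier results of these data known. The transcripts given with their values were, for each gene, those with the lowest, highest and outermost values, those of 1 kb or more and those touching an exon; the others were added so that all 48 appear. No genome sequence was used, so base composition of the intronic intervals was left out.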

Additional observations from a re-analysis of the deposited data

How the results depend on the processing

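No paired analysis was possible because each diet has a single FPKM column; libraries could not be left out in turn either. The counts, medians and differences were recomputed with other pseudocounts, scalings, spans and levels; counting the 3 shared intervals as members was added after the data were seen. A pseudocount of 1 gave 15 members at least 2-fold lower in place of 32, and medians of -0.81 for all members, -0.83 for Fhit and -0.71 for Immp2l. Median centring and quantile normalization each gave 7 members lower and 3 higher in place of 32 and 1. The medians of all members, Fhit and Immp2l were then -0.39, -0.44 and -0.30 after centring and -0.37, -0.46 and -0.27 after quantile normalization. A 4-fold rule left 4 lower and 0 higher, and spans of at least 400 bases left 0 higher. The median of Macrod2, -2.64 as reported, was -1.42 with a pseudocount of 1, -1.82 after centring, -1.81 after quantile normalization and -1.80 with spans of at least 400 bases, still at least 2-fold lower. Each setting was changed alone. The -1.80 is the value of the transcript at 398.7 kb, which was at -0.98 after centring, just short of 2-fold. Of 38 transcripts named by the fixed rule, 6 changed sign after centring and 6 after quantile normalization, and none did with another pseudocount, which cannot change a sign. Values of transcripts under 400 bases have no fragment estimate.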
